A study of Mus musculus with 232 samples.

Results

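Histone chaperones are proteins that carry histones and hand them to DNA. Transcripts of 10 listed genes of this kind were followed in single mouse embryonic stem cells (ESCs): Set, Anp32a, Anp32b, Anp32e, Nap1l1, Nap1l4, Nasp, Npm1, Chaf1a and Asf1b. They were chosen by name out of 42493 genes in the files, because Set and Nasp had been seen to fall after let-7. The let-7 values of the list are therefore given below as a description. The mean count of each of the 10 genes passed the minimum of 5 per cell, as did 11176 genes in all. Cells were grown with LIF and 2i, a pair of kinase inhibitors that hold ESCs in a naive state, and were captured 24 h after transfection. Mock cells were Dgcr8-/- ESCs treated with the transfection reagent and no mimic, let-7 and miR-294 cells were Dgcr8-/- ESCs given the respective mimic, and wild-type cells were V6.5 ESCs with intact Dgcr8, whose treatment with the reagent the labels do not give cell by cell. Dgcr8 is needed to process nearly all microRNAs, so mock, let-7 and miR-294 cells share the loss of their own mature microRNAs. The sample titles call the let-7 mimic let-7i, the series text let-7b and the study's methods let-7c, so it is called let-7 here. The mature sequences (RefSeq, GRCm38.p6) are shown because all 3 candidates have the same seed, bases 2 to 8, printed in capitals, which differs from that of miR-294.
mmu-let-7b-5p: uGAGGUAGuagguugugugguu
mmu-let-7c-5p: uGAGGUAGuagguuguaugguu
mmu-let-7i-5p: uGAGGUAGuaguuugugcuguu
mmu-miR-294-3p: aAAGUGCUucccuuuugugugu

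Newly made histones reach replicating DNA through a relay. Nasp holds a reserve of H3 and H4, Asf1b passes H3-H4 dimers on, and Chaf1a, the large subunit of CAF-1, deposits them behind the replication fork. Nap1l1 and Nap1l4 carry H2A-H2B, Anp32e removes the variant H2A.Z, and Npm1 (nucleophosmin) is an abundant chaperone of the nucleolus. Set (template-activating factor I) and its acidic partners Anp32a and Anp32b bind histone tails, and Set also inhibits the phosphatase PP2A. ESCs divide quickly and spend much of their time in S phase, when demand for this machinery is high.

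Libraries of 182 cells were deposited in 232 runs: 16 cells were wild type, 60 mock, 48 let-7 and 58 miR-294. A group of 4 pairs of cells, 3 of let-7 and 1 of miR-294, had counts that differed by no more than runs of a single cell do (chi-square per gene 1.89 to 4.86, against 1.26 to 6.74 between alike runs and 30.8 for the next pair of cells). Each pair was counted as 1 cell with its mean count, leaving 45 let-7 and 57 miR-294 cells, 178 in all. Of the 50 cells with 2 runs, 2 had runs far less alike than the rest. They were let-7 replicate 19 and wild-type replicate 3 (numbers count the labelled cells of a condition in accession order). Between runs of these cells r was 0.70 and 0.71, against 0.987 or more for the other 48. Their runs were kept summed as labelled. Leaving out both cells moved no gene across the 1.5-fold mark used below. The study had also removed transfected cells whose listed microRNA targets were not lowered, and Asf1b is on its miR-294 list, so miR-294 cells were partly chosen on this gene. None of the other 9 genes is on either list.

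Total counts ranged from 513521 to 3979274 per cell, with medians of 1307481 to 1574732.5 by condition. Each condition was 1 chip, and the labels name no separate cultures, so chip and condition cannot be told apart, a condition is 1 sample, and no test or p-value is given. A change of RNA per cell and a change in all other transcripts also cannot be told apart on a scale relative to the total. On the scale of CPM (counts scaled to a total of 1000000), Dgcr8 transcript was at 118 CPM in wild-type cells and at 35.2, 31.7 and 46 in mock, let-7 and miR-294 cells. Reads of it thus remained in the knockout, and whether they fall outside the deleted part was not analysed here. The 10 pluripotency markers summed to 4081 to 7473 CPM by condition, against 0.08 to 9.08 for 8 fibroblast, 0 to 8.33 for 6 primitive endoderm and 16.1 to 36.2 for 8 epiblast and germ layer markers. Col1a2, Col3a1, Lum and Postn, which define fibroblasts, were at 0 in every condition, as were the endoderm genes Gata6 and Sox17. The highest sums of the fibroblast and endoderm lists were both in let-7 cells. Dcn was at 6.53 CPM there (mock 0.07), from 2 cells with up to 351 normalized counts, and S100a4 at 2.46 CPM in 7 cells. Gata4 was at 5.64 CPM in 6 cells (mock 1.76) and Pdgfra at 1.23 CPM in 4 cells. The part of these markers in the let-7 values below was not tested. Median mitochondrial shares were 2.73% in wild-type, 3.68% in mock, 3.31% in let-7 and 2.37% in miR-294 cells.

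Per transcript length, Npm1 and Set stood far above the other chaperones in every condition. The mean FPKM over cells (the authors' value scaled for transcript length and depth) of Npm1 was 3847 ± 1442 (SD over 60 cells) in mock cells and that of Set 2025 ± 722. Nap1l1 came next with 313 ± 150.0 and Nasp with 177 ± 104, while Asf1b (120.3 ± 117), Anp32a (91.5 ± 64.7) and Anp32b (84 ± 71.6) lay within each other's spread. Anp32e (35.6 ± 36) and Nap1l4 (35 ± 30.3) could not be ordered, and Chaf1a was lowest at 10.7 ± 19.8. The order of the first 2 and of the last gene was the same in all 4 conditions. Nasp, at 549.7 ± 208 (SD over 16 cells), ranked above Nap1l1 (355 ± 146) in wild-type cells, where it ranked below it in the 3 Dgcr8-/- conditions. These SDs are spread between cells of 1 chip and not errors of a condition.

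**Figure D1:**
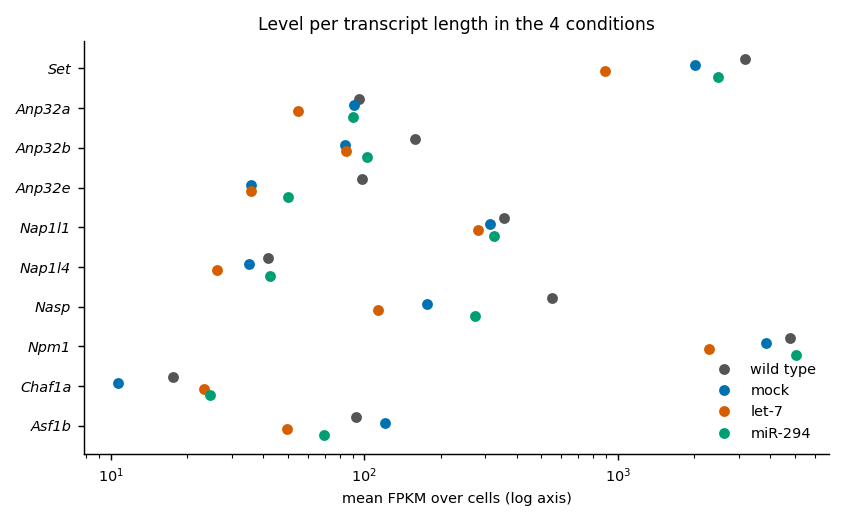
Mean FPKM over cells on a log axis for each histone chaperone gene in wild-type, mock, let-7 and miR-294 cells (1 point per condition). Npm1 and Set lie at the right in every condition, from 889 FPKM for Set in let-7 cells to 5034 FPKM for Npm1 in miR-294 cells, and Chaf1a lies at 10.7 to 24.7 FPKM.

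On summed counts, Set was the member with the lowest let-7 to mock ratio. Its gene lies at chr2:30057378-30072577 (GRCm38, plus strand). The count divided by the DESeq size factor of the cell, called normalized count below, ran from 2241 through a median of 7758 to 13453 over mock cells. In let-7 cells the same 3 values were 927, 3717 and 9767, in miR-294 cells 2843, 8716 and 16899, and in wild-type cells 5714, 11299.9 and 16931. Let-7 cells were thus lowest and wild-type cells highest by median, with overlapping ranges: 44 of 45 let-7 cells lay below the mock median and 6 below the lowest mock cell. Summed over cells, Set gave 2374 CPM in let-7 and 5401 CPM in mock cells, a log2 ratio of -1.19 (95% interval -1.19 to -1.18) or 2.28-fold lower. This interval, an exact Clopper-Pearson one as all below, covers counting error only, and the reads carry no molecular identifiers. The log2 ratio was 0.34 for miR-294 over mock and -0.72 for mock over wild type, where 51 of 60 mock cells lay below the wild-type median. With each cell weighted equally, that last ratio was -0.47 from means and -0.54 from medians of normalized counts and no longer reached 1.5-fold. All 3 comparisons use the mock cells, so they do not stand apart from each other.

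Anp32a, which binds histone tails together with Set, was next lower in its family after let-7. Its log2 ratio (chr9:62341293-62378812, plus strand) was -0.70 for let-7 over mock, with 57.8 CPM against 93.6 CPM, and 33 of 45 let-7 cells lay below the mock median of 128 normalized counts. From means of normalized counts the ratio was -0.56, short of 1.5-fold. For miR-294 over mock it was 0.13, a difference that changed sign with FPKM (-0.01), and for mock over wild type -0.47.

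Anp32b and Anp32e stood apart from Set after let-7 but not in the comparison with wild type. Anp32b (chr4:46450902-46472657, plus strand) had a let-7 over mock log2 ratio of 0.11, and -0.04 with TMM scaling, so no direction is given. Its normalized counts ran from 63.5 through 279 to 728 in wild-type cells, from 0 through 136 to 751 in mock, from 3.78 through 183 to 849.9 in let-7 and from 29 through 186 to 823 in miR-294 cells. The 3 knockout conditions had lower medians than wild type, although all ranges overlapped, and mock over wild type was -1.17 (interval -1.21 to -1.13), or 2.25-fold lower. Anp32e (chr3:95929246-95947390, plus strand) was at -0.86 in the same comparison, but wild-type replicate 2 alone held 762 normalized counts, and without that cell the ratio was -0.28, while FPKM gave -1.46. Its let-7 over mock ratio was -0.09, with 0.01 from FPKM, and its miR-294 over mock ratio 0.37, with 0.93 from medians. The transcript of H2afz, which encodes the H2A.Z histone that Anp32e removes, had log2 ratios of 0.27, 0.26 and -0.38 for let-7 over mock, miR-294 over mock and mock over wild type.

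**Figure D2:**
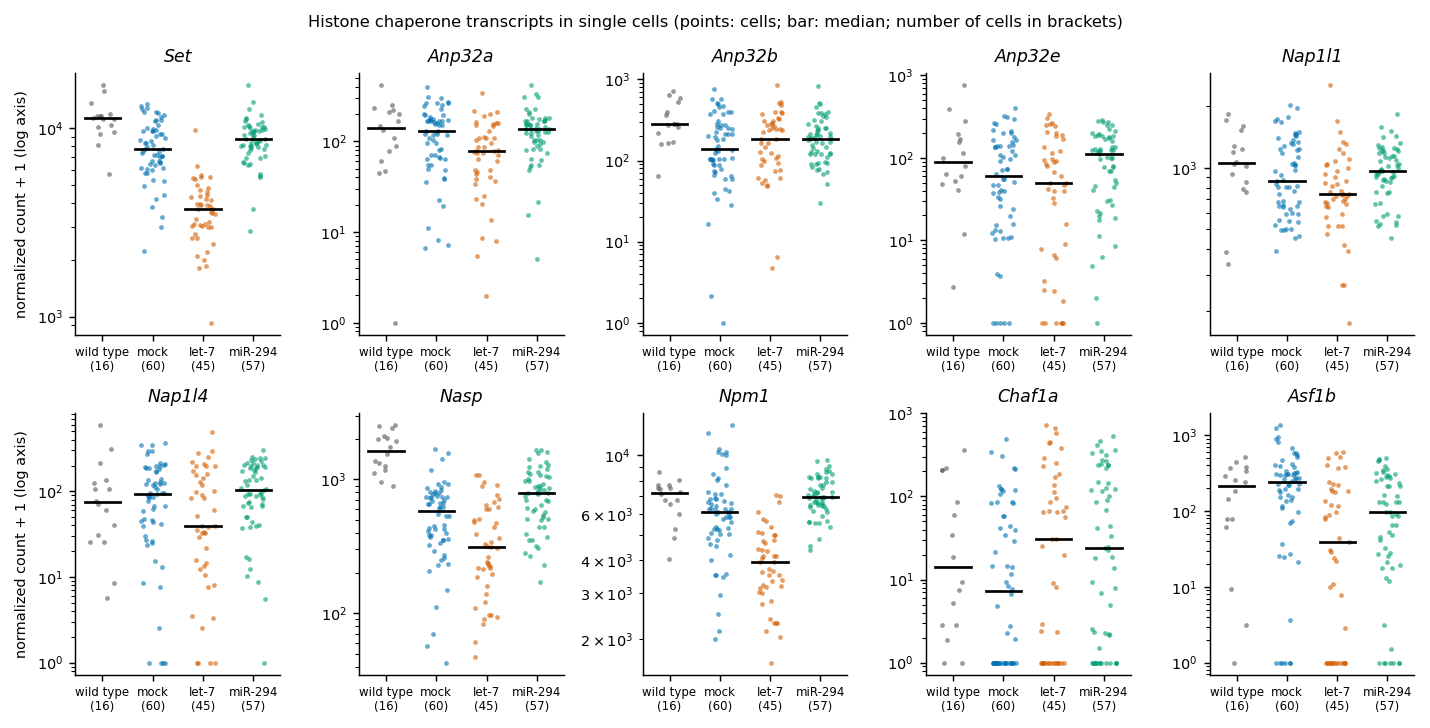
Normalized count + 1 of each histone chaperone gene on a log axis, with 1 point per cell and a bar at the median, for 16 wild-type, 60 mock, 45 let-7 and 57 miR-294 cells. Set is shifted down in let-7 cells (median 3717 against 7758 in mock) and Nasp is highest in wild-type cells (median 1638), while Chaf1a and Asf1b have many cells at 0.

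Among carriers of H2A-H2B, Nap1l1 varied least between conditions. Its gene lies at chr10:111473223-111498150 (plus strand), and its median normalized count was 1054 in wild-type, 864 in mock, 739.8 in let-7 and 968 in miR-294 cells. Log2 ratios were -0.30 (let-7 over mock), 0.24 (miR-294 over mock) and -0.38 (mock over wild type), none reaching 1.5-fold. Nap1l4 (chr7:143513579-143549106, minus strand) was at -0.31, 0.37 and -0.60, with -1.27 in place of -0.31 from medians. The last of the 3 reported value just passed 1.5-fold (0.58 on the log2 scale), was -0.16 without wild-type replicate 2, fell short of the mark when any of 18 cells was left out, and became 0.34 when medians over cells were compared, since the mock median (93.1) was above that of wild type (73.6). No direction is therefore given for Nap1l4 between mock and wild type.

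Npm1, the highest of the genes per transcript length, was lower in let-7 than in mock cells. It lies at chr11:33152287-33163206 (minus strand). Normalized counts ran from 2012 through 6079.9 to 13032 in mock, from 1631 through 3921 to 7066 in let-7, from 4359 through 6971 to 9563 in miR-294 and from 4039.8 through 7203 to 8660.4 in wild-type cells. Below the mock median lay 41 of 45 let-7 cells, and 47 of 57 miR-294 cells lay above it. Sums gave 2445 CPM in let-7 against 4363 CPM in mock cells, a log2 ratio of -0.84 (interval -0.84 to -0.83). The ratio was 0.31 for miR-294 over mock and -0.22 for mock over wild type, both under 1.5-fold.

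Nasp showed the widest difference between mock and wild-type cells. Its gene lies at chr4:116601052-116627941 (minus strand), and it is on the cell cycle list that the study used. Normalized counts ran from 899 through 1638 to 2549 in wild-type cells, from 41.8 through 581 to 1683 in mock cells, from 45.9 through 311 to 1075 in let-7 cells and from 169.9 through 794 to 1671 in miR-294 cells. Of 60 mock cells, 59 lay below the wild-type median and 53 below the lowest wild-type cell. Mock over wild type was -1.74 on the log2 scale (interval -1.76 to -1.72), or 3.33-fold lower, and between -1.91 and -1.49 under every setting tried. For miR-294 over mock the log2 ratio was 0.67, and 39 of 57 miR-294 cells lay above the mock median. It was 0.47 from means and 0.45 from medians of normalized counts, so that the 1.5-fold mark was passed only with some weightings. For let-7 over mock it was -0.63, with 33 of 45 cells below the mock median, and -0.58 from means or -0.53 with the first run of each cell, both short of 1.5-fold, but -0.90 from medians.

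Asf1b was lower in both transfected conditions than in mock cells. It lies at chr8:83955507-83970197 (plus strand). Normalized counts ran from 0 through 238 to 1365 in mock, from 0 through 38.2 to 602 in let-7, from 0 through 96.1 to 497 in miR-294 and from 0 through 211 to 515 in wild-type cells. The gene was counted in 54 of 60 mock, 31 of 45 let-7, 50 of 57 miR-294 and 15 of 16 wild-type cells, so cells without a count were more frequent after let-7 than in the other conditions. The log2 ratio was -0.97 (interval -1.01 to -0.93) for let-7 over mock and -2.64 from medians. It was -0.66 for miR-294 over mock, in cells partly chosen on this gene, and -0.54 without mock replicate 3, which held 1245 normalized counts, and -1.31 from medians. Mock over wild type was 0.18, under 1.5-fold.

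Chaf1a was the only member higher by 1.5-fold after let-7, and it was also the sparsest. It lies at chr17:56040439-56072289 (plus strand). Of 60 mock cells 35 had a count, against 30 of 45 let-7, 43 of 57 miR-294 and 14 of 16 wild-type cells, and with cells thinned to 500000 counts these were 32, 29, 41 and 10. Normalized counts ran from 0 through 6.19 to 496 in mock, from 0 through 29.4 to 722 in let-7, from 0 through 22.9 to 528 in miR-294 and from 0 through 13.1 to 366 in wild-type cells. All 4 ranges thus started at 0 and overlapped, and 27 of 45 let-7 cells lay above the mock median. Sums gave a log2 ratio of 1.25 (interval 1.19 to 1.31) for let-7 over mock, and it stayed at 1.01 or more when any 1 cell was left out and was 2.25 from medians. It was 1.36 (interval 1.31 to 1.42) for miR-294 over mock and -0.60 for mock over wild type, but the last was -0.30 without wild-type replicate 1, which held 366 normalized counts, and fell short of 1.5-fold when any of 36 cells was left out. Ubxn6 overlaps Chaf1a on the opposite strand and the counting is not stated to use strand, so reads of the 2 genes could be mixed. Ubxn6 had log2 ratios of 0.58, 0.54 and -0.37 in the same order, at 18.6 to 27.7 CPM. Chaf1b, the middle-sized subunit of CAF-1, named here after its values were seen, was at -0.88, -0.29 and 0.72, opposite in sign to Chaf1a in each comparison.

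**Figure D3:**
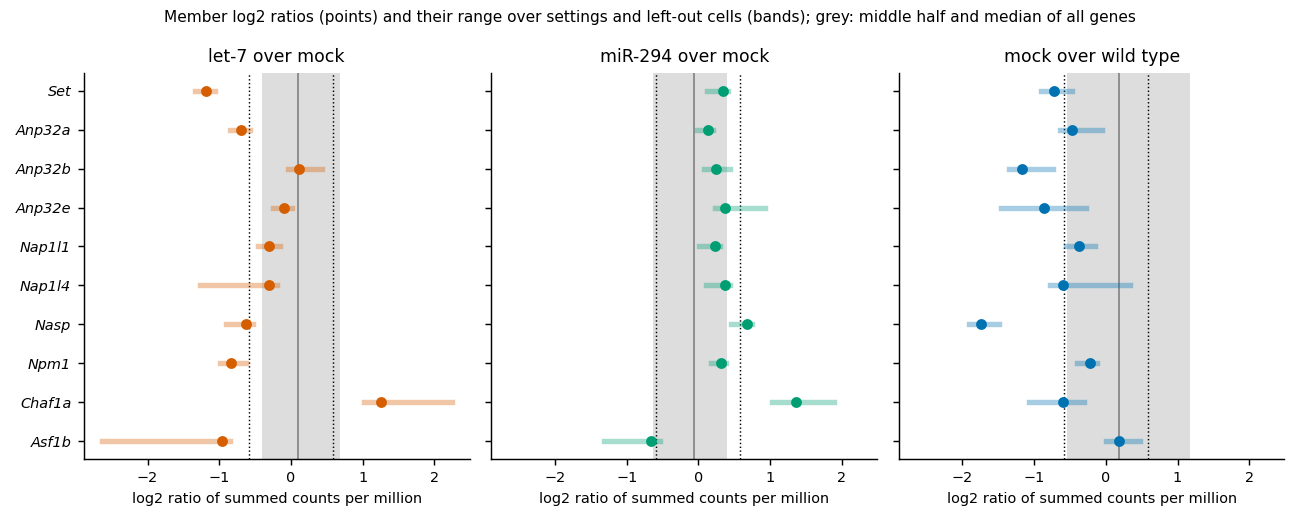
Log2 ratio of CPM for let-7 over mock, miR-294 over mock and mock over wild type (points), with the range over 13 alternative settings including each cell left out (bands), the middle 50% (grey block) and median (grey line) of 11176 genes, and 1.5-fold marked by dotted lines. Set, Npm1 and Asf1b lie left of the dotted line with their whole band after let-7, Chaf1a lies right of it in both transfections, and Nasp lies at -1.74 in mock over wild type.

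Counted together, 5 of the 10 genes were lower by at least 1.5-fold in let-7 than in mock cells (Set, Anp32a, Nasp, Npm1, Asf1b) and 1 was higher (Chaf1a). Over all 11176 genes the shares were 18.9% lower and 28.2% higher, but since the list was chosen on this comparison nothing is read from the count. With means of normalized counts 3 genes were lower (Set, Npm1, Asf1b), and with medians 6, Nap1l4 being added. In miR-294 against mock cells 1 gene was lower (Asf1b) and 2 were higher (Nasp, Chaf1a), against 26.6% and 17.6% of all genes. Asf1b fell short of the mark when 1 mock cell was left out. With 10 genes, nothing is read from these counts either. In mock against wild-type cells 6 were lower (Set, Anp32b, Anp32e, Nap1l4, Nasp, Chaf1a) and 0 higher on summed counts, against 23.5% and 37.6%, although Nap1l4 reversed with medians. At a 2-fold mark the counts lower and higher were 1 (Set) and 1 (Chaf1a) after let-7, against 10.3% and 16.7% of all genes, 0 and 1 (Chaf1a) after miR-294, against 15.4% and 8.28%, and 2 (Anp32b, Nasp) and 0 in mock against wild-type cells, against 13.2% and 28.2%. At 1.5-fold, the count of 6 lower in mock cells was 4 from means, 4 from medians and 4 to 6 when any 1 cell was left out. Members' median log2 ratios were -0.47, 0.33 and -0.60 in the 3 comparisons, against 0.10, -0.06 and 0.18 over all genes.

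Spread between cells was described by the coefficient of variation (CV, SD over mean of normalized counts), which also holds counting and amplification noise and is larger for rare transcripts. Npm1 had a CV of 0.36 in mock and 0.33 in let-7 cells, against 0.17 in miR-294 and 0.18 in wild-type cells. For Set the values were 0.33 in mock, 0.39 in let-7, 0.26 in miR-294 and 0.24 in wild-type cells. Among the 10 genes, 9 had a lower CV in miR-294 than in mock cells, as had 63.9% of all genes, with Asf1b as the exception (1.00 against 0.99). In let-7 cells 7 had a higher CV than in mock cells, against 49.9% of all genes, and in mock cells 7 had a higher CV than in wild-type cells, against 60.4%. These are counts over genes of the same cells and were not tested.

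The 10 genes did not vary together as a block within conditions. The median Pearson r over their 45 pairs, on log2(normalized count + 1) over the cells of 1 condition, was 0.03 in let-7, 0.09 in miR-294, 0.12 in mock and 0.17 in wild-type cells. The highest value was 0.80 for Set with Anp32a over 16 wild-type cells, where the rank correlation was 0.52. In the 60 mock cells the highest r were 0.51 for Nap1l1 with Npm1 and 0.50 for Anp32a with Npm1. Set had 0.49 with Npm1 and 0.47 with Anp32a, with rank correlations of 0.33 and 0.41. Cells of a chip share their handling and the genes share the depth of a cell, so these values are descriptions.

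In mock and let-7 cells, Nasp and Asf1b had the highest correlations of the 10 genes with S phase genes. In miR-294 cells this was so by rank correlation only, and in wild-type cells by neither measure. The S phase score of a cell was the mean of 50 listed S phase genes, each on the log2 scale and standardized over all cells. Over mock cells the Pearson r with this score was 0.64 for Nasp and 0.59 for Asf1b, and over let-7 cells 0.52 and 0.60. In miR-294 cells the same Pearson correlations were 0.23 and 0.33, below Nap1l4 (0.47), Set (0.43) and Anp32a (0.39). Rank correlations there were 0.37 and 0.39, above Nap1l1 (0.28), Nap1l4 (0.27), Set (0.19) and Anp32a (0.12), so the order depends on the measure. Over the 16 wild-type cells the Pearson r was 0.24 for Nasp and -0.28 for Asf1b, with Npm1 highest (0.53). Set had 0.28 in mock, 0.18 in let-7 and 0.17 in wild-type cells, and Npm1 0.26 in mock, -0.09 in let-7 and -0.01 in miR-294 cells. Chaf1a, whose protein works at the fork, had 0.21, 0.34 and 0.05 in mock, let-7 and miR-294 cells at its sparse counts.

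**Figure D4:**
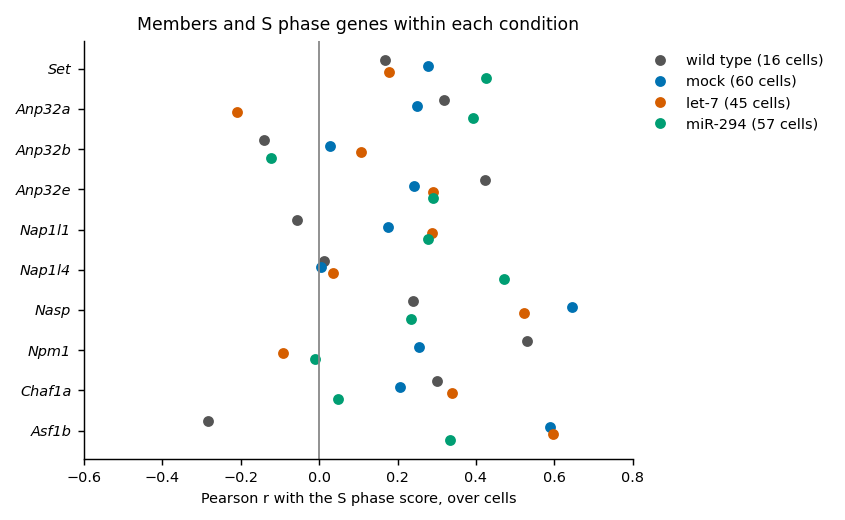
Pearson r between each histone chaperone gene and the S phase score over the cells of 1 condition (1 point per condition, cell numbers in the legend). Nasp and Asf1b lie furthest right in mock cells (0.64 and 0.59) and let-7 cells (0.52 and 0.60).

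Over all 178 cells, which mixes conditions, the genes most like Set among the 5327 genes that averaged 50 or more counts were Npm1 (r = 0.59), Trim71 (0.58), Nanog (0.58), Nme4 (0.57) and Hmga1 (0.57). Trim71 is an RNA-binding ubiquitin ligase, Nanog a pluripotency factor and Hmga1 a chromatin protein. Those most like Nasp were Rrm2 (0.55), a subunit of ribonucleotide reductase, the mitotic genes Ccnb1 (0.51) and Birc5 (0.50), the inhibitor of cyclin degradation Fbxo5 (0.47) and Pbld2 (0.47). Set and Nasp were chosen for a fall after let-7, so genes that also fall there can rank high over pooled cells. Within conditions, Set with Npm1 had r of 0.05 in let-7, 0.14 in miR-294, 0.20 in wild-type and 0.49 in mock cells.

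Genes of S phase are given beside the chaperones. Of 50 such genes tested, 22 were lower by 1.5-fold and 0 higher in let-7 than in mock cells (median log2 ratio -0.54), where 18.9% and 28.2% of all genes were. Among the lowest were Rrm2 (-2.37), the thymidine kinase Tk1 (-2.24), the replication licensing gene Cdc6 (-1.90) and the polymerase subunit Pola1 (-1.28). In miR-294 cells 0 were lower and 5 higher (median 0.16), against 26.6% and 17.6% of all genes. Those higher included the flap nuclease Fen1 (0.82), Cdc45 (0.74) of the replicative helicase and Uhrf1 (0.62). With means of normalized counts 4 were lower and 1 higher (median -0.02), with medians 3 and 16 (median 0.28) and with TMM scaling 0 and 9, so the miR-294 count depends on the scaling. For mock over wild type 10 were lower and 8 higher (median -0.21), or 17 and 13 from medians, against 23.5% and 37.6% of all genes on summed counts. Of 10 pluripotency markers, 6 were lower by 1.5-fold after let-7, with Nanog at -1.62. The study looked at a partly different set of markers, Nanog among them, and reported no significant change across conditions. Its criterion was significance and not the fold of sums used here. The part of the S phase genes and of these markers in the chaperone values was not tested.

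Other histone chaperones did not move as one. Of 37 listed, 33 had enough counts. After let-7, 5 were lower and 3 higher (median -0.10), against 18.9% and 28.2% of all genes. The counts were 9 and 2 with TMM scaling, 4 and 6 with means and 11 and 8 with medians of normalized counts, so no balance is read from them. The list included Hat1 (-1.06), which acetylates new H4, Mcm2 (-1.04), which holds H3-H4 at the fork, and C1qbp (-1.0) at the low end and the H3-H4 chaperone Spty2d1 (1.16) among those higher. For miR-294 over mock 2 were lower and 1 higher (median -0.04), against 26.6% and 17.6% of all genes. These counts were 5 and 1 from means and 3 and 3 from medians of normalized counts. For mock over wild type 4 were lower, among them Hirip3 (-1.43), and 11 higher, among them Vps72 (2.25), a chaperone of H2A.Z, Sart3 (1.30) and Tspyl1 (1.29). In all genes 23.5% were lower and 37.6% higher in this comparison. From medians 6 other chaperones were lower and 6 higher, and after centring on all genes 7 and 8, so no contrast with the members is drawn. Of 4 genes for proteins that form the SET complex with Set, 2 were lower and 1 was higher after let-7, against 18.9% and 28.2% of all genes. These counts were also 2 and 1 from means, but 2 and 0 from medians of normalized counts. The higher gene was Trex1 (1.89), with a mean count of only 13.5 per cell. Apex1, the abasic-site nuclease, was at -0.79 and the nucleoside diphosphate kinase Nme1 at -0.66 after let-7, while Hmgb2 was at -0.03. These last 3 genes were at 0.43, 0.31 and -0.01 for miR-294 over mock and at 0.10, -0.24 and -0.48 for mock over wild type.

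Matches to the microRNA seeds were searched on the transcript strand of the longest annotated 3′ untranslated region of each gene. A match to let-7 bases 2 to 8 (CTACCTC) was found in 1 of the 10 genes, Nap1l1, against 10.6% of 10304 genes tested with such a region, and a match to miR-294 (AGCACTT) in 2, Chaf1a and Asf1b, against 18.2%. No such letters were found for either seed in the regions of Set (1635 bases), Nasp (664 bases) and Npm1 (527 bases), which says nothing of other sites. These matches to bases 2 to 8 are shown in capitals. Matches to bases 2 to 7 alone were left out, such as a 6-base miR-294 match in Set and in Anp32e. Also left out was a further let-7 match in Nap1l1, to bases 2 to 7 followed by an A. The Nap1l1 match shown is followed by an A as well.
Nap1l1, let-7, capitals at chr10:111497170-111497176 (plus strand): tgttgattcaaCTACCTCaactctgttaa
Chaf1a, miR-294, capitals at chr17:56067789-56067795 (plus strand): tcatgataaagAGCACTTtgtcctacatt
Chaf1a, miR-294, capitals at chr17:56067923-56067929 (plus strand): gccttaatcacAGCACTTgctgtgggcaa
Asf1b, miR-294, capitals at chr8:83970183-83970189 (plus strand): ttaagaataaaAGCACTTcatctaga

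In the values above, the gene with a let-7 match, Nap1l1, was at -0.30 after let-7. Of the genes with a miR-294 match, Asf1b was at -0.66 after miR-294, in cells partly chosen on this gene. Chaf1a, with sparse counts, was at 1.36. The part of these matches in the values was not tested.

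Near-identical gene copies could share reads with some members. Of all 31-base stretches in the transcripts, 31.3% of those of Set, 29.2% of Npm1, 24.6% of Nap1l1 and 24.3% of Anp32b also occur in other genes. The genes made up mostly of such stretches took at most 0.27% of the reads of a member and its copies, and adding their counts moved no gene across 1.5-fold. These counts are as the authors' software assigned them, so they cannot show whether shared reads went to the right gene. Genes that share fewer stretches were not added, and Anp32b had no copy to add.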

How the data were processed

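Single-cell libraries (Fluidigm C1, Nextera XT) were sequenced by the authors, who aligned reads to Gencode M4 with RSEM 1.2.19 and removed cells of low depth, low diversity or without lowered targets. Per run they deposited an expected count, not normalized, and an FPKM, normalized for length and depth. The FPKM was used for levels between genes (runs weighted by total count) and as an alternative.

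For each cell its runs' expected counts were added and rounded, cells of a condition were added up, and sums were scaled to a total of 1000000 (CPM). Genes averaging 5 or more counts per cell entered the background. A ratio of at least 1.5, or its inverse, counted as a difference. Exact 95% intervals cover counting error only. Cells are not replicates of a condition, so no test was run. Cell values were divided by DESeq size factors from 864 genes counted in every cell, and a pseudocount of 1 was added before log2. Analyses used Python 3.11.15, numpy 2.4.6, pandas 2.3.3 and scipy 1.17.1, and TMM factors came from edgeR 4.0.16 (R 4.3.3). The ratio and its interval were tested on simulated Poisson counts without other spread between cells or chips. That setting is the one the interval assumes, so it says nothing of such spread.

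Symbols (41674 of 42493 identifiers) and positions are from Gencode M21 (GRCm38), a later release than the files'. The members and gene lists were chosen with earlier results of these data known. Named genes were the 10 members, up to 4 per list and comparison with the largest ratio among those with a mean count of at least 50, the 5 most like Set and Nasp, Dgcr8 and the markers. Trex1, with a lower mean count, was named as well. The miR-294 cells include 3 titled differently, by their genotype label. Alternatives were TMM scaling, mean or median of normalized counts, FPKM, the first run only, every labelled cell, cells of at least 1000000 counts, omission of those 3 cells, of each cell, or (chosen after seeing the data) of the 2 cells with unlike runs, addition of copies and centring on all genes, and a 2-fold mark.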

Additional observations from a re-analysis of the deposited data

How the results depend on the processing

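No paired analysis was possible because the numbers written as rep in the sample titles mark sequencing runs of a cell, the cell numbers used here pair nothing across conditions, and no test was fitted. The count of genes past 1.5-fold kept within 1.5 times its value in 77 of 84 recounts. With the mean of size-factor normalized counts, 3 genes were lower after let-7 (reported 5) and 1 was higher after miR-294 (reported 2). At 2-fold, 1 was lower after let-7, 0 lower and 1 higher after miR-294, and 2 lower in mock than in wild-type cells (reported 6). When each cell was left out, the count lower after miR-294 ranged from 0 to 1. The log2 ratio of Nap1l4 for mock over wild type reversed to 0.34 with medians of normalized counts. Scaling moved the median of all genes from 0.10 to -0.05 for let-7 over mock (TMM), from -0.06 to -0.28 for miR-294 over mock and from 0.18 to 0.32 for mock over wild type (both with means of normalized counts). With no filter on low counts, 45.1% of genes scored lower in mock than in wild-type cells (reported 23.5%). Sums under 3 counts were set to 3 before the ratio. A gene without reads in both conditions thus scored -2.10 there and was called lower, so the 45.1% is no share of genes that fell. Of other histone chaperones 6 were higher after let-7 (reported 3). In mock against wild-type cells 7 scored lower (reported 4), among them Nap1l5, which had no reads in either. The cause of the other changes was not tested. Depth limits Chaf1a most, which had a count in 35 of 60 mock cells.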

Other observations

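Subunits and inhibitors of PP2A, the phosphatase that Set inhibits, were measured beside the chaperones. Of 20 listed genes, 18 had enough counts. For let-7 over mock 3 were lower and 5 higher by 1.5-fold (median log2 ratio 0.23), against 18.9% and 28.2% of all genes. Ppp2r3c was at -1.10 and Arpp19, which encodes a PP2A inhibitor, at -0.83. The regulatory subunits Ppp2r2d and Ppp2r5a were at 0.89 and 0.80. For miR-294 over mock 0 were lower and 3 higher (median 0.15), against 26.6% and 17.6% of all genes. The scaffold subunit Ppp2r1b led at 0.90. With means of normalized counts 2 were lower and 1 higher (median -0.14), and with medians 1 and 7 (median 0.45). For mock over wild type 7 were lower and 2 higher (median -0.48), against 23.5% and 37.6% of all genes. From means of normalized counts 6 were lower and 3 higher (median -0.16), and from medians 8 and 4 (median -0.50). On summed counts Ppp2r1b was at -1.52, Ppp2r2d at -1.35, the inhibitor Cip2a at -1.30 and the catalytic subunit Ppp2ca at -0.87.

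Of 15 histone genes known to give polyadenylated mRNA, 11 had enough counts. The centromeric H3 gene Cenpa was at 1.29 for let-7 over mock, 1.93 for miR-294 over mock and -1.77 for mock over wild type on the log2 scale. H2afv was at 0.81, 0.63 and -0.20, and the replacement H3 gene H3f3b at 0.26, 0.29 and -0.06. Over the list 2 were lower and 3 higher after let-7, against 18.9% and 28.2% of all genes. From medians of normalized counts these were 0 and 2, and the median log2 ratio was 0.24 in place of -0.12. After miR-294 2 were lower and 4 higher, against 26.6% and 17.6%. In mock against wild-type cells 3 were lower and 2 higher, against 23.5% and 37.6%.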
